A study of Mus musculus with 2 samples.

Results

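The 30 genes described here encode proteins of the nuclear pore complex or proteins that work at it, and were followed across trimethylation of lysine 36 of histone H3 (H3K36me3) in mouse embryonic stem cells. They were chosen by name, and are 30 of the 21911 protein-coding genes annotated on chromosomes 1 to 19, X and Y. No measured value entered the rule, but earlier results of these data were known when the choice was made. Chromatin immunoprecipitation and sequencing (ChIP-seq) with an antibody to H3K36me3 was carried out on E14TG2a.4, a male embryonic stem cell line of strain 129/Ola that the labels assign to the embryonic stage with an age of 3.5 days. There were 2 biological replicates from separate biosamples of this 1 line and donor, with no treatment and no second condition, so the members were described across genes and between replicates. The deposited values are peak lists, without read counts, so the depth behind each value is unknown, and 2 replicates of 1 group allow no test. All 30 symbols were found in the gene annotation.

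The nuclear pore complex is the channel in the nuclear envelope through which protein and RNA pass between nucleus and cytoplasm. Scaffold rings built from the Y complex and the inner ring hold it in the membrane, proteins rich in phenylalanine and glycine (FG) repeats line its channel, and filaments and a basket extend from its faces. H3K36me3 is known to be deposited by an enzyme that travels with elongating RNA polymerase II, so that in general it lies over the bodies of transcribed genes and increases away from their starts. Dividing cells assemble new pores continually, and most pore proteins are present in every cell type.

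The covered share used below is the percent of bases of a gene, from its annotated start to its annotated end, that lie in peaks of a replicate. A gene was called marked when this share was at least 10% in each replicate. Of the 30 members 29 were marked (96.7%), whereas 37.2% of all coding genes were. In each replicate at least 50% of the gene body was covered in 26 members, against 19.3% of all coding genes, and at least 80% was covered in 16 members, against 5.66%. The median covered share of the 30 members was 82.4% in replicate 1 and 82.0% in replicate 2, which gave 82.2% ± 0.230 (SD, n = 2). The median over all coding genes was 0% in both replicates, and over the 8155 marked coding genes it was 57.1% and 52.9%. The replicates differed by a median of 2.27 percentage points per member, and by 3.68 points per marked coding gene. Replicate 1 was higher in 27 members and replicate 2 in 3, and over all marked coding genes replicate 1 was higher in 5608 and replicate 2 in 2507. A peak list from a bulk culture cannot tell apart a larger share of cells that carry the mark and more of the mark per cell.

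**Figure D1:**
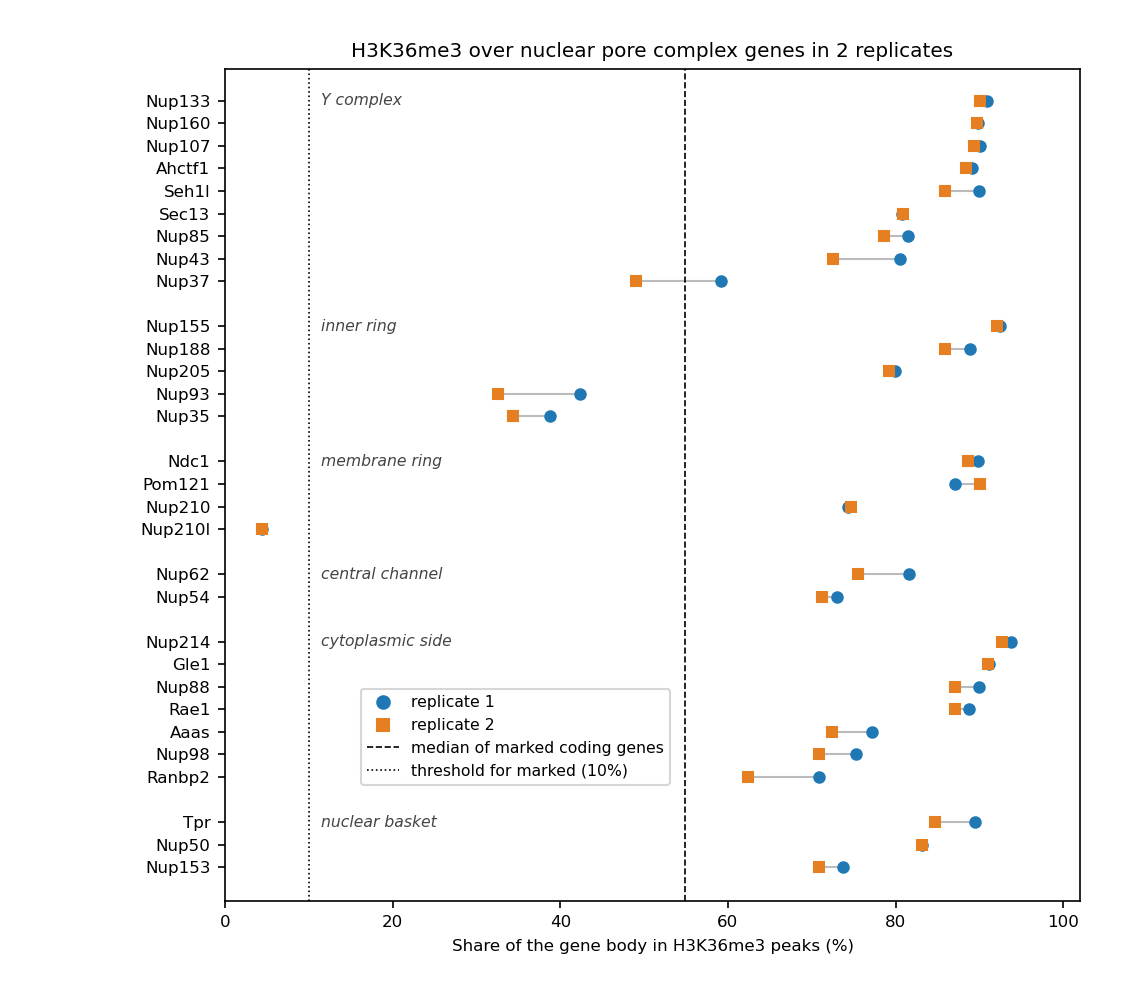
Share of each gene body in H3K36me3 peaks (x axis, percent) for the 30 members (y axis), grouped by place in the pore, with replicate 1 as circles and replicate 2 as squares joined by a line. Most members lie to the right of the median of marked coding genes (dashed line), Nup35 and Nup93 lie to its left in both replicates, Nup37 has a replicate on either side, and Nup210l lies left of the 10% threshold (dotted line).

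The peaks that overlapped members numbered 462 in replicate 1 and 464 in replicate 2. Their median width was 1186.5 bp and 1119.5 bp, against 731 and 724 bp over all peaks, and the median of the authors' fold enrichment over background was 6.19 and 7.11, against 4.37 and 5.0. Of the peaks on members 89.2% in replicate 1 and 95.9% in replicate 2 overlapped a peak of the other replicate by at least 1 bp. When an overlap of at least 50% of both peaks was required, the mean over the replicates was 68.0%. Of all member bases covered in either replicate, 89.8% were covered in both. None of these overlaps was computed over all peaks or over marked coding genes, so they cannot be called particular to the members.

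The Y complex, the scaffold unit that forms the outer rings, had 9 of 9 genes marked and a median share of 87.9%. Nup107, Nup133 and Nup160 encode long proteins of this complex. Nup107 was covered over 90.1% of its body in replicate 1 and 89.3% in replicate 2, Nup133 over 90.9% and 90.1%, and Nup160 over 89.8% and 89.7%. Within each of these genes the replicates lay less than 1 point apart. Ahctf1, known as ELYS, binds chromatin and starts pore assembly after mitosis, and was covered over 89.1% and 88.4%. Seh1l, which also belongs to a nutrient sensing complex, had 89.9% and 85.9%. Sec13, which is shared with the coat of vesicles that leave the endoplasmic reticulum, had 80.8% and 80.9%. Nup85 had 81.4% and 78.6%, and Nup43 had 80.5% and 72.6%. Nup37 was the lowest of the Y complex genes in both replicates, with 59.2% and 49.0%, and the 10.1 points between its replicates were the largest difference among the members.

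The inner ring, which joins the outer rings to the membrane and the channel, had 5 of 5 genes marked and held both the lowest marked members and one of the highest. Nup155 was covered over 92.5% and 92.1% of its body. Nup188 had 88.8% and 85.8%, and Nup205, which encodes a scaffold protein related to the product of Nup188, had 79.9% and 79.3%. Nup93, which links the large inner ring proteins, had 42.3% and 32.6%. Nup35, whose product binds the membrane, had 38.7% and 34.3%. Nup93 and Nup35 lay below the median of marked coding genes in each replicate, and their ranges over the replicates overlapped.

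Among the membrane ring genes 3 of 4 were marked. Ndc1, which encodes a protein that crosses the nuclear membrane and anchors the pore, had 89.8% and 88.6%. Pom121, also a membrane protein, had 87.1% and 90.1% and was one of the 3 members with a higher share in replicate 2. Nup210 spans 103.8 kb and had 74.3% and 74.6%. Nup210l, the related gene known from expression in the testis, had 4.39% in replicate 1 and 4.38% in replicate 2 and was the only member that was not marked.

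In the central channel list both genes were marked. Nup62 and Nup54 encode FG proteins that form the channel with a common partner, and had 81.6% and 75.6%, and 73.0% and 71.3%.

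The cytoplasmic side had 7 of 7 genes marked and a median of 87.9%. Nup214, an FG protein of the cytoplasmic filaments, was covered over 93.7% and 92.7%, the highest share of any member in each replicate. With each gene taken at the lower of its replicates, 99.5% of coding genes lay below Nup214. The binding partner of Nup214, Nup88, had 89.9% and 87.1%. Gle1, which activates a helicase in messenger RNA export, had 91.1% in both replicates, and Rae1, a messenger RNA export factor that binds Nup98, had 88.8% and 87.1%. Aaas, whose human counterpart is mutated in triple A syndrome, had 77.2% and 72.4%. Nup98, whose precursor protein is cut into Nup98 and the Y complex protein Nup96, had 75.2% and 70.8%. Ranbp2, a very large protein that binds Ran and transfers SUMO, had 70.9% and 62.4%, the lowest of the cytoplasmic side in each replicate.

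All 3 nuclear basket genes were marked. Tpr, which forms the basket, had 89.5% and 84.7%. Nup50, an FG protein that helps import receptors release their cargo, had 83.1% in both replicates, and Nup153, the FG protein that attaches the basket, had 73.7% and 70.9%.

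The members were longer than most coding genes, with a median of 44.8 kb and a range from 11.4 to 107.9 kb, against a median of 19.7 kb over marked coding genes. They had a median of 21 merged exon blocks, against 9. Across the 29 marked members the covered share and the gene length had a Spearman rho of 0.09, and across the 8155 marked coding genes it was -0.24. Both are descriptions across genes, which share the same 2 libraries and are not replicates.

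Each base of a gene was given the fold of the peak over it, or 0 where uncovered, and these values were averaged. The average is not an enrichment measured per base, and it grows with peak width. Its median was 7.34 in replicate 1 and 9.27 in replicate 2 over the members, and 3.55 and 4.11 over marked coding genes. The average lay above the latter median in 26 of the 29 marked members in each replicate, all but Nup35, Nup37 and Nup93. Nup50, with 12.6 and 13.9, and Rae1, with 10.5 and 14.8, were the highest members in both replicates, followed by Nup214 in replicate 1 (9.43) and Nup188 in replicate 2 (12.8). In replicate 1 a single peak of 15773 bp, counted at its fold of 15.5 throughout, lay over most of the 19.6 kb of Nup50. The fold is the authors' own value for each peak and was compared only within a replicate. The single peaks with the highest fold were on Nup50 in replicate 1 (15.5) and on Nup62 in replicate 2 (21.1), and over the 29 marked members the highest peak ranged from 7.83 to 15.5 and from 9.62 to 21.1.

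The summits of these highest peaks were more than 1 kb apart between replicates in most members, and lay within 1 kb in 12 of 30. In 6 members they were at most 100 bp apart. The sequences around 5 of these are shown because they hold, or lie next to, the highest summits of both replicates. Each has 50 bases on either side of the replicate 1 summit, and the replicate 2 summit lies inside the window for Nup62 and Nup43 and just outside it for Nup188, Nup50 and Rae1. They are RefSeq sequence of GRCm38.p6, 5′ to 3′ on the strand of the gene, with coding bases in capitals.
Nup62 chr7:44829961-44830061 (+): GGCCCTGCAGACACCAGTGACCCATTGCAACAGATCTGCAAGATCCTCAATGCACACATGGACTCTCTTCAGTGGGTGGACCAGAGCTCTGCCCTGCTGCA
Nup43 chr10:7675034-7675134 (+): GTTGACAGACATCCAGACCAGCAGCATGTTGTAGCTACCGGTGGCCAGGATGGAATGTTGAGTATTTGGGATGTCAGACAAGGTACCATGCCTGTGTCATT
Nup188 chr2:30341759-30341859 (+): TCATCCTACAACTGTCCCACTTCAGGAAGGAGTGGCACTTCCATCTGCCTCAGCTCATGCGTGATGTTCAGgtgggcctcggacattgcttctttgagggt
Nup50 chr15:84929407-84929507 (+): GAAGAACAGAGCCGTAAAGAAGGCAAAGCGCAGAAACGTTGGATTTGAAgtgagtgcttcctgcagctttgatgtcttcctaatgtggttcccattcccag
Rae1 chr2:173012855-173012955 (+): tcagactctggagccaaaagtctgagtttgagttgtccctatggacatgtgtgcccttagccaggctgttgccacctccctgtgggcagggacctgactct
The windows of Nup62 and Nup43 are coding throughout, those of Nup188 and Nup50 cross the end of a coding exon into the intron, and that of Rae1 has no coding base. The Nup62 summits, 7 bp apart with folds of 14.8 and 21.1, lie at 94.6% of the gene length, and the Nup188 summits, 74 bp apart with folds of 12.7 and 18.1, lie at 95.8% (replicate 1). The Nup50 summits, 64 bp apart with folds of 15.5 and 18.1, lie at 30.9% (replicate 1). Over the 29 marked members the summit of the highest peak lay in an exon block in 13 genes in replicate 1 and 14 in replicate 2, and exon blocks hold 15.1% of the bases of these genes. Such summits were not counted over all marked coding genes, so the counts cannot be called particular to the members.

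Each gene was divided into 3 equal parts, which span more bases in longer genes. In the marked members the 5′ part was covered over 65.0% ± 2.87, the middle part over 83.0% ± 2.03 and the 3′ part over 89.2% ± 1.09 (SD, n = 2). Over the 7789 marked coding genes of at least 3 kb the same parts were covered over 32.7%, 59.4% and 68.8%. The 3′ part of the members exceeded the 5′ part by 22.9 points in replicate 1 and 25.4 in replicate 2, a mean of 24.2 ± 1.78, and over marked coding genes by 36.1 ± 1.18. Both differences were larger than the spread between replicates, and the members were covered further than the marked coding genes in every part. The 3′ part was higher than the 5′ part in both replicates in 27 of 29 members, and in 85.0% of marked coding genes. The exceptions were Nup37, with 77.5% and 74.3% in the 5′ part and 35.6% and 30.4% in the 3′ part, and Nup133, whose 5′ part (87.9% in both replicates) and 3′ part (88.1% and 87.0%) lay within 1 point of each other.

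In 10 equal parts numbered from the 5′ end, coverage of the members went from 29.5% ± 3.23 in part 1 to 69.5% ± 2.95 in part 2 and 89.2% ± 2.53 in part 3, and then stayed between 81.6% and 90.6%. Over marked coding genes the same parts had 12.5%, 33.9% and 45.7%, and coverage went on rising to 70.8% in part 9. The parts are fractions of gene length, with a median of 42.1 kb in the marked members and 19.7 kb in all marked coding genes. A part therefore tends to span more bases in a member, and how far length shapes these profiles was not tested. The first covered base lay a median of 1792 bp (replicate 1) and 1977 bp (replicate 2) from the start of the members, and 2163 and 2393 bp from the start of marked coding genes. No marked member had a covered base within 500 bp of its start in either replicate, and 95.6% of marked coding genes had none. Nup210 began latest among the marked members, at 10402 and 10554 bp.

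**Figure D2:**
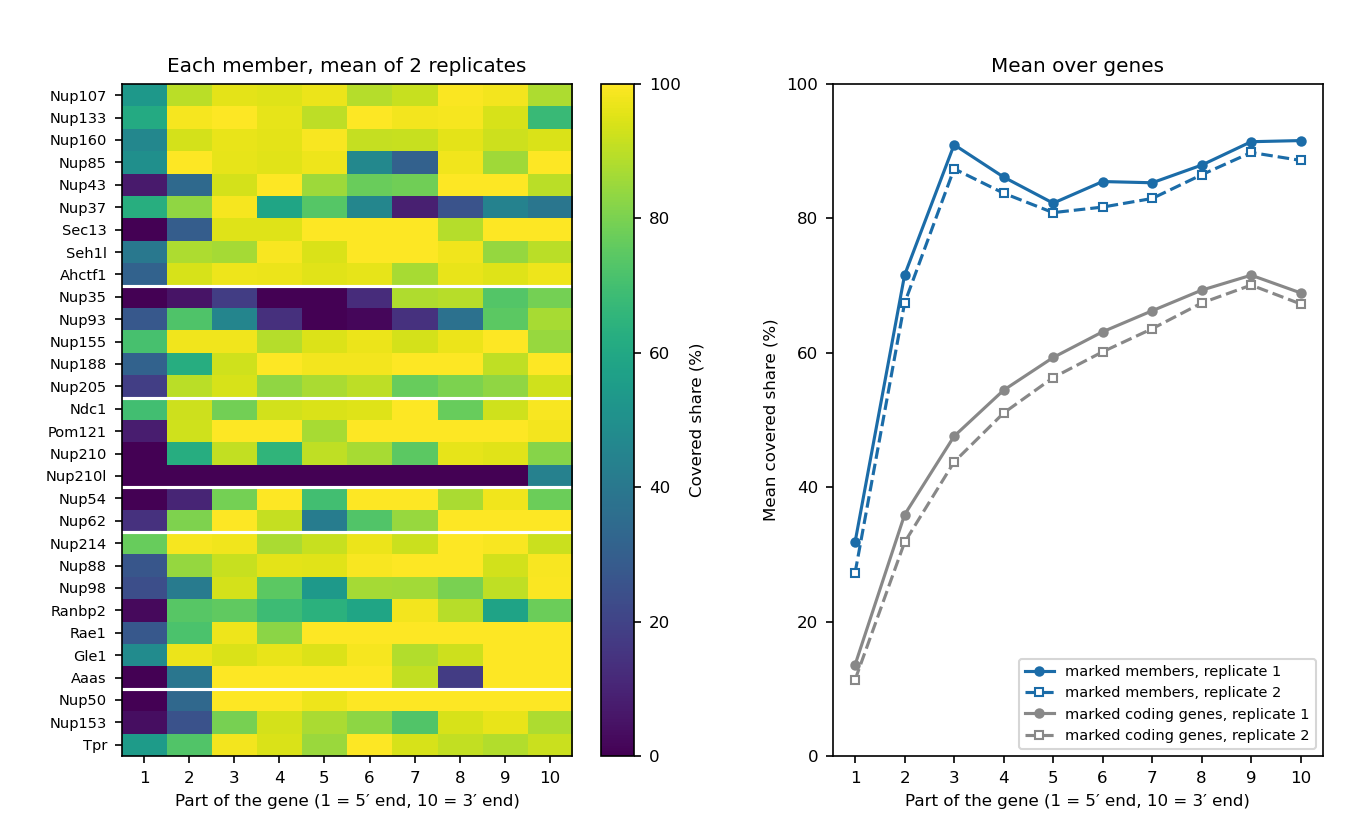
Left, covered share (colour, percent, mean of 2 replicates) in 10 equal parts of each gene from the 5′ end to the 3′ end, with white lines between the subcomplexes. Right, the mean over the 29 marked members and over 7789 marked coding genes in each replicate: the members reach 89.2% in part 3, marked coding genes 45.7%. Parts are fractions of gene length, and the members are longer at the median.

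The starts themselves were examined in RefSeq promoter windows of 300 bases, 250 before and 50 from the start, which were found for 25 members (28 windows). Windows were not used for Nup35, Nup43, Nup85, Nup210l and Seh1l. No window held a covered base in either replicate. The windows held a median of 27.5 CG pairs, from 3 to 45, against 22 in the 8063 windows of marked coding genes and 7 in all 32851 windows. The windows of 3 members are printed from GRCm38.p6, 5′ to 3′ on the strand of the gene, with CG pairs in capitals: that of Nup214, the member with the highest share, and those of Nup37 and Nup98, whose starts lie 50 bp and 31 bp from the start of a gene on the other strand.
Nup214 chr2:31974200-31974499 (+): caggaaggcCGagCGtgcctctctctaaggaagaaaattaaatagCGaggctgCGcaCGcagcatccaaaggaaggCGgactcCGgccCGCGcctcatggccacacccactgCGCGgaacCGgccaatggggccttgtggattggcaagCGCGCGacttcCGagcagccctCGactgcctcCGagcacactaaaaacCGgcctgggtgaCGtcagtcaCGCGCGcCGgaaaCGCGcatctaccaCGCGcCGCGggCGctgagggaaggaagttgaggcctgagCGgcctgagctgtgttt
Nup37 chr10:88146742-88147041 (+): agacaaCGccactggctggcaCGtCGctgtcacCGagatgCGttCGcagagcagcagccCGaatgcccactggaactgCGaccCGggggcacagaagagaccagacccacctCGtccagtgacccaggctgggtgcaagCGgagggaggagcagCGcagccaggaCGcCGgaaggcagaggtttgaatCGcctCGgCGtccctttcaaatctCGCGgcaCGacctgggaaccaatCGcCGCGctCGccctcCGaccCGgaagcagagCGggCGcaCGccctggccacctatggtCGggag
Nup98 chr7:102210117-102210416 (-): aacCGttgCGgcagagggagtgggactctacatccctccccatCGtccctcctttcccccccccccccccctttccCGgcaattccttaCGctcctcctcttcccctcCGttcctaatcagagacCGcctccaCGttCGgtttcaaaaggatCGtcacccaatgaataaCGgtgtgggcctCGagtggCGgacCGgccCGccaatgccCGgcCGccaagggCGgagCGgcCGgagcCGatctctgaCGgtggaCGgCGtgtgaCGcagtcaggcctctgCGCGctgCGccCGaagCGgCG
Motifs were searched on both strands. The ETS core CCGGAAG was in 9 of the 28 windows and 8.86% of all windows, the GC box GGGCGG in 18 and 35.7%, the box CCAAT in 11 and 37.4%, the NRF1 core GCATGCGC in 3 (Nup50, Nup62 and Nup107) and 2.71%, and the TATA box TATAAA in 3 (Nup93, Nup160 and Ranbp2) and 13.6%. Matches are counts of letters and not binding sites.

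A coding gene on the other strand started within 1 kb of 7 of the 30 members (23.3%), and of 10.8% of all coding genes and 19% of marked coding genes. The partners were Parpbp, Pgap2, Dolk, Rpain, Odr4, Gm10518 and Atf5, and in these pairs the 2 genes were not alike in their coverage. Nup98 had 75.2% and 70.8%, and Pgap2 had 22.7% and 15.8%. Nup37 had 59.2% and 49.0%, and Parpbp had 13.4% and 6.52%. Nup188 had 88.8% and 85.8%, and Dolk 49.4% and 31.2%. Nup88 and Rpain lay closest, with 89.9% and 87.1% against 79.1% and 78.1%. In all 7 pairs the member had the higher share in each replicate. Other pairs of this kind were not compared, and the median share was 82.2% over the members and 0% over all coding genes. The count therefore cannot be read as a trait of these pairs.

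The 5 kb before the start of the marked members was covered over 10.8% ± 1.91 and the 5 kb past the end over 41.4% ± 2.71, a difference of 30.7 points ± 0.801 (SD, n = 2). The downstream flank was higher in both replicates in 21 of 29 members, and in 58.3% of marked coding genes. Flanks often hold other genes, so they were also given apart. The 15 upstream flanks free of coding genes were covered over 1.06%, and 14 of them had no covered base, the exception being Seh1l with 24.2% and 7.56%. The 14 upstream flanks that touch a coding gene were covered over 21.2%. Past the end, the 10 flanks free of coding genes were covered over 32.8% ± 2.10, and the 19 others over 46.0% ± 3.03. Downstream flanks of Nup85 and Nup188, which run into Gga3 and Sh3glb2, were covered throughout in both replicates, while that of Nup133, ahead of the skeletal muscle actin gene Acta1, had no covered base.

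When peaks within 3 kb were joined into domains, the members lay in 38 domains in each replicate, and 25 members were touched by a single domain in each. The 25 were not the same genes: Nup153 had more than 1 domain only in replicate 1, and Nup210 only in replicate 2. They include the unmarked Nup210l, whose domain held 4.39% and 4.38% of the gene. Domains were not counted over marked coding genes, so the count cannot be called particular to the members. The longest domain reached 103.0 kb in replicate 1, across Nup88, Rpain, C1qbp, Dhx33 and Rabep1. In replicate 2 it was divided, the domain with Nup88 was 63.6 kb long, and the longest on any member was 89.6 kb, over Nup210.

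Exon blocks of the marked members were covered over 84.1% ± 0.805 and introns over 76.0% ± 2.27, with bases pooled, a ratio of 1.11 ± 0.0224. Over 8010 marked coding genes with introns the values were 64.1%, 41.6% and 1.55 ± 0.0872, so the difference between members and marked genes was larger in introns than in exons. Pooling gives long genes more weight. With equal weight per gene, exons and introns of the members had 81.9% and 78.8%, a ratio of 1.04 ± 0.0235. Those of marked coding genes had 64.1% and 50.8%, a ratio of 1.26 ± 0.0420, so the contrast was smaller. Exons were covered further than introns in both replicates in 14 of 29 members, and in 67.2% of marked coding genes, and introns further than exons in 9 members. In the 3′ part of the gene, 1 of 3 equal parts, the pooled ratio was 1.06 ± 0.00222 for the members and 1.29 for marked coding genes. With equal weight per gene it was 1.02 and 1.08. Of 665 exon blocks, 550 in replicate 1 and 546 in replicate 2 were covered over their whole length, and 58 and 65 had no covered base. Neither these blocks nor genes with introns above exons were counted over marked coding genes, so these counts cannot be called particular to the members.

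**Figure D3:**
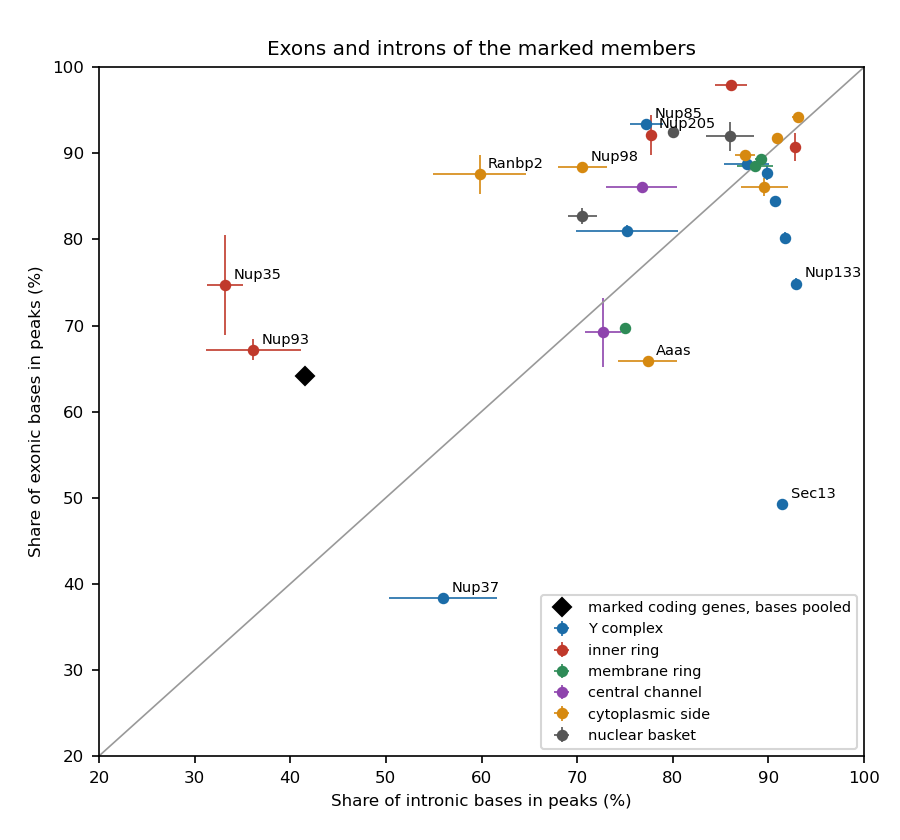
Share of exonic bases in peaks (y axis, percent) against share of intronic bases (x axis, percent) for the 29 marked members, coloured by subcomplex, with points at the mean and bars from one replicate to the other. The diamond is the pooled value of marked coding genes (41.6%, 64.1%), and Sec13 lies farthest below the line of equal shares.

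The first exon block had no covered base in either replicate in 28 of the 29, the exception being Nup37, with 34.1% and 34.9%. That block of Nup37 is 1.784 kb long, because it ends where a transcript of the retained intron class ends. Coverage of Nup37 began at 1176 and 1161 bp. First exon blocks were not counted in this way over all marked coding genes. The exons of Sec13 were covered over 49.3% in both replicates and its introns over 91.3% and 91.6%, while 7 of its 8 exon blocks were covered throughout and only the first had no covered base. The last exon block was covered throughout in both replicates in 11 members, and in Nup37 it had no covered base in either. Last exon blocks were not counted over all marked coding genes either. Nup35 and Nup93 showed the reverse of Sec13, with exons at 80.5% and 69.0% against introns at 35.1% and 31.3% for Nup35, and 68.4% and 65.9% against 41.2% and 31.1% for Nup93.

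The members with the lowest shares differed in where their peaks lay. Nup93 (chromosome 8, 94214564 to 94317227, plus strand) was covered over 57.3% and 36.4% of its 5′ part, 6.67% and 1.86% of its middle part and 62.9% and 59.5% of its 3′ part. Its longest stretch without a peak was 20.5 kb in replicate 1 and 29.1 kb in replicate 2, and touched 2 exon blocks. Annotated coding transcripts begin 52.3 and 54.0 kb from the gene start, inside that stretch, and the RefSeq promoter window of the first of these held 3 CG pairs, the fewest of the members, against 28 at the start of the gene. Repeats masked in the reference made up 26.3% and 26.5% of the stretch, close to the 26.9% of all member bases.

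Nup35 (chromosome 2, 80617236 to 80658906, plus strand) was covered over 12.0% and 2.10% of its 5′ part and 85.3% and 77.9% of its 3′ part. Its annotated start is that of a transcript of the retained intron class, 191 bp from the start of Dusp19, which lies on the same strand and overlaps it by 15126 bp and had 10.8% and 1.90%. The coding transcripts of Nup35 start 21.6 kb further in. Over the longest of these, of 20.1 kb, the share was 72.1% and 69.7%.

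Nup37 (chromosome 10, 88146992 to 88178390, plus strand) went from 77.5% and 74.3% in its 5′ part to 64.4% and 42.3% in the middle and 35.6% and 30.4% in the 3′ part. It was the only marked member with the 5′ part higher than the 3′ part in both replicates, a pattern found in 10.3% of marked coding genes. The longest stretch without a peak, of 3.19 kb and 6.01 kb, touched no exon block.

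Nup210l (chromosome 3, 90104132 to 90212048, plus strand) had 1 peak in each replicate. The peak covered the last 4735 bp of the gene in replicate 1 and 4728 bp in replicate 2, with folds of 10.2 and 11.7, and the first 103182 and 103189 bp had no covered base. It ran 1037 and 1231 bp past the end of Nup210l into Rps27, a ribosomal protein gene on the other strand that ends 473 bp away and was itself covered over 49.9% and 67.1%. The upstream neighbour Tpm3, which ends 3229 bp before the start of Nup210l, was covered over 62.9% and 59.3%. Nup210, which encodes the related protein, had peaks from 10402 and 10554 bp onward in a gene of similar length. To which of the convergent genes the peak at the end of Nup210l belongs cannot be told apart.

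**Figure D4:**
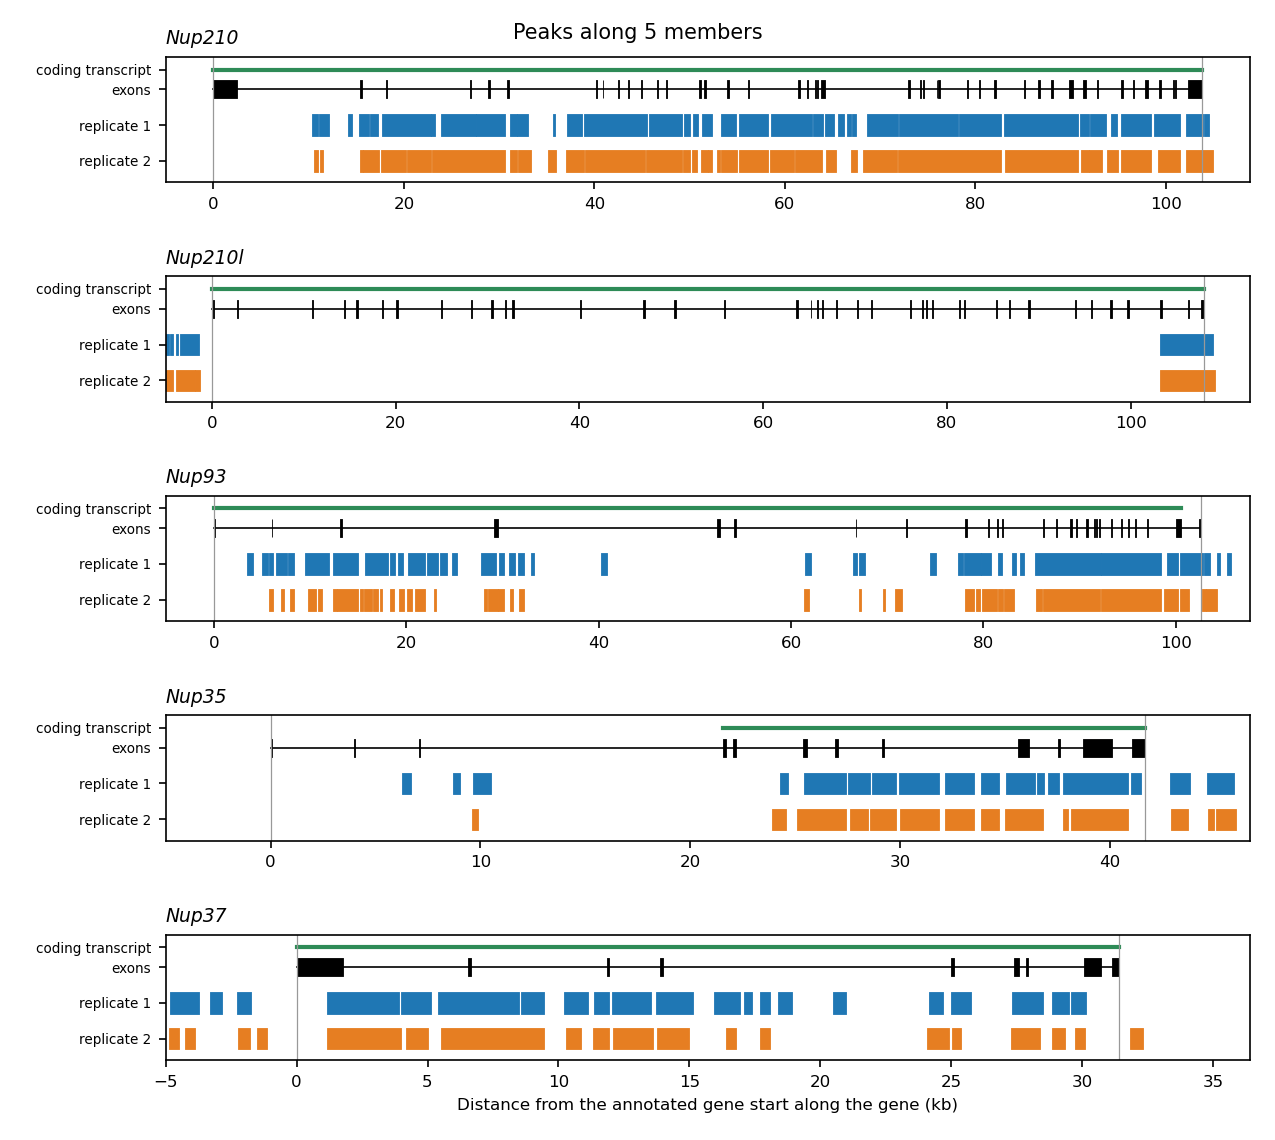
Peaks in replicate 1 and replicate 2 along 5 members, in kb from the annotated start, with merged exon blocks in black, the longest coding transcript as a line above them, and 5 kb on either side. Nup210 is covered from about 10402 bp onward, Nup210l only over its last 4735 bp, Nup93 lacks peaks over 20.5 kb or more of its middle, Nup35 has most of its peaks within the span of its coding transcript, and Nup37 thins out toward its end.

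Smaller gaps were seen in well covered members. In Nup85, the longest uncovered stretch, of 1.66 kb and 2.36 kb in the middle part, was masked as repeat over 100% of its bases in both replicates. In Nup98 it was 6.22 kb and 8.15 kb and masked over 43.5% and 42.6%. Over all member bases, 23.7% of those covered in both replicates and 34.5% of those covered in neither were masked, and over marked coding genes 19.3% and 30.7%. The part of repeats in the uncovered stretches was not tested.

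Another coding gene overlaps 10 members, and a peak in the overlap cannot be assigned to either. Nup43 lies within Pcmt1, which runs on the other strand, and Nup133 within the annotated span of Gm20388, a record of 4434.9 kb. Nup62 shares 14426 bp with Il4i1 on the same strand, which had 82.3% and 71.8%. Of the 20 members that overlap no other coding gene 19 were marked, and their median share was 79.8%.

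Other genes of nuclear transport and the nuclear envelope were taken from lists of 78 symbols, of which 76 were found and 64 were marked (84.2%), beside 37.2% of all coding genes. Export receptors were marked in 7 of 7 and Ran cycle genes in 5 of 5. Xpo5, which exports microRNA precursors, had 92.5% and 92.7%, and Xpo1, the receptor for proteins with nuclear export signals, had 90.3% and 87.0%. Ranbp3, a cofactor of Xpo1, had 94.8% and 94.0%. Import receptors were marked in 16 of 17. Kpnb1, importin beta, had 96.4% and 97%, more than any pore member in each replicate, and Kpna7, an importin alpha known from oocytes and early embryos, had no covered base.

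Of the mRNA export genes 14 of 20 were marked. Thoc3, a subunit of the THO complex, had 90.6% and 90.7% and Mcm3ap, the scaffold of the TREX-2 complex, 89.9% and 89.0%. Thoc2, the large THO subunit, had 4.74% and 3.74%, and Nxf2, Nxf3, Nxf7, Nxt2 and Alyref2 had no covered base. Of the envelope and lamina genes 13 of 15 were marked, with Lmnb2 (a B-type lamin) at 88.4% and 88.3% and Sun1, which links lamina and cytoskeleton, at 87.2% and 86.6%. The giant nesprin genes Syne1 and Syne2 had 0% and at most 0.0775%. The SUMO and spindle partners were marked in 6 of 6, among them Senp2, which removes SUMO from proteins, at 73.1% in both replicates. The other pore genes were marked in 3 of 6: Nutf2, the carrier of Ran, had 90.3% and 87.2%, Nupl2 had 43.2% and 37.1%, and Pom121l2, Pom121l12 and Nup62cl had no covered base. Of the 7 listed genes on the X chromosome, 1 was marked (Emd), and of the 69 on autosomes 63 were. The marked share of all X-linked coding genes was not computed, so these counts cannot be read as particular to the lists.

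As a check on the cell type, 8 of 8 embryonic stem cell genes were marked, with shares from 35.4% to 83.9%, among them Pou5f1 and Nanog. None of 6 fibroblast genes that would mark feeder cells, such as Col1a1 and Thy1, had a covered base in either replicate, and 50.1% of all coding genes had none. The embryonic stem cell count is read against the 37.2% of coding genes that were marked.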

How the data were processed

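H3K36me3 ChIP-seq peaks of 2 biological replicates of E14TG2a.4 cells were read from narrow peak sets on mm10. The authors deposited, for each replicate, peaks supported by pseudoreplicates, and sets pooled over or found in both replicates. Each deposited peak carries a fold enrichment (a ratio over background) and a q-value as −log10, which the caller gave. The aligner, the caller, the read length and the depth were not given in the sources used here. Control libraries were not used here. A narrow caller splits a broad mark, and separate calling lets depth move coverage between replicates.

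Gene models were GENCODE M21, on the assembly that mm10 names. For each coding symbol the longest record was kept (21911 genes, 27 records left out). Exons were merged over transcripts into blocks. Promoter and genome sequences were RefSeq GRCm38.p6, and 0 peaks lay past a chromosome end. Shares were computed per replicate in Python 3.11.15 with numpy 2.4.6 and pandas 2.3.3, and tested on simulated data first. Positions used marked genes of at least 3 kb, exon values marked genes with introns, flanks 5 kb and domains a joining gap of 3 kb.

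The replicates formed 1 group, so no conditions were compared and no test was run. Means ± SD are over 2 replicates. The members and lists were chosen with earlier results of these data known. Named genes were the 30 members, coding genes that overlap them or lie within 5 kb, and of each list the highest 2 and each unmarked gene. A gene that this rule names is not reported here. Emd, Dhx33 and C1qbp, and the stem cell and fibroblast genes, were named otherwise. Alternatives were other peak sets, a q-value minimum (−log10 of 5), each replicate left out, other thresholds, gene spans, gaps, flanks, weights and overlap rules.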

Additional observations from a re-analysis of the deposited data

How the results depend on the processing

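The difference along the gene and the flank difference kept their sign under each alternative run. Counts, shares and the exon to intron ratio cannot be negative, so a kept sign shows nothing for them. Members marked numbered 29 at thresholds of 5% and 25% and 26 at 50%, and 19 of the 20 members free of any overlap with a coding gene were marked. Pathway genes marked numbered 64, 58 and 46 at these thresholds (5%, 25% and 50%), 62 at −log10 q of at least 5 and 47 without overlapping genes. The median covered share was 86.9% with peaks found in both replicates (main run) and in the pooled set, 86.5% with those of the other run, 83.6% with the unthresholded sets and 79.8% without overlapping genes. The difference along the gene (3′ minus 5′ part) was 22.0, 21.5, 20.6, 22.0 and 22.3 points under these alternatives, in the same order. The exon to intron ratio was 1.06 with peaks found in both replicates of either run and with the pooled set, 1.14 without overlapping genes, 1.04 with equal weight per gene and 1.06 in the 3′ part. The flank difference was 37.2, 36.7, 35.2 and 34.3 points with the found-in-both (main run), pooled, found-in-both (other run) and unthresholded sets, 32.5 over the longest coding transcript, 53.9 with flanks of 2 kb and 24.4 with 10 kb. Peaks shared at 50% of both came to 68.0%, and joining within 1 kb gave 60 domains and within 10 kb 32. The causes were not tested, except that shorter joining gaps and stricter overlap act by construction.

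Leaving out 1 replicate gave 29 members marked and 64 pathway genes marked each time, median shares of 82.0% to 82.4%, differences along the gene of 22.9 to 25.4 points, exon ratios of 1.09 to 1.12 and flank differences of 30.1 to 31.2 points. Of 180 member shares recomputed under the 6 alternatives that could move them by over 1 SD, 101 moved by more than that, and 1 changed by over 1.5 times (Nup35, 70.9% over its longest coding transcript against 36.5%). No paired analysis was possible because the 2 samples form a single group. Unknown depth limits what an uncovered stretch shows: the mark was not called there, which is not absence.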
